A study of Mus musculus with 12 samples.

Results

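Interferon-stimulated genes are the genes that cells switch on when interferon binds its receptors, and many of their products block viruses. A list of 38 such genes was followed through 3 progenitor types of mouse bone marrow. The list was drawn up by gene symbol and matched by Ensembl ID to the annotation of the mm10 build, and all 38 were found among the 38924 gene IDs of the deposited table. Bulk RNA-seq libraries were made from female C57Bl/6J mice after depletion of marrow cells with mature lineage markers. Lymphoid-primed multipotent progenitors (LMPP), which can still form most blood lineages, were sorted as lineage-negative Sca1+ cKit+ CD150- CD34+ cells with high Flk2. Common lymphoid progenitors (CLP), precursors mainly of lymphocytes, were lineage-negative IL7Ra+ Flk2+ cells with low Sca1 and low cKit. Granulocyte-monocyte progenitors (GMP) were lineage-negative Sca1- cKit+ CD150- CD34+ cells with the Fc gamma receptor. Each type had 4 libraries, 2 in each of 2 batches named in the sample titles. The labels name no mutation or treatment for any group, and the sources used here give neither the nature of a batch, nor the donors' age, nor the number of animals behind a library. Whether the 4 libraries of a type are different animals is likewise not stated, so each p-value reflects spread among these samples alone, and part or all of it may be technical.

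Type I interferons bind the receptor formed by Ifnar1 and Ifnar2, whose kinases Jak1 and Tyk2 pass the signal to Stat2. With Irf9, Stat2 is part of a complex that binds the interferon-stimulated response element (ISRE) in promoters, while the gamma-activated site (GAS) is the element of the interferon gamma response. Blood stem cells and early progenitors are known to keep part of this programme on without infection, more so than many of their descendants.

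Promoter sequence was looked up first, because the ISRE is what many of these genes have in common. RefSeq promoter windows of build GRCm38.p6, which run from 250 bases before to 50 bases after a start site, were found for 27 of the 38 genes. They were searched on both strands for the ISRE core, spelled GAAA, any 2 bases, GAAA, where neighbouring matches may overlap. A match lay in 16 of the 27 genes (59.3%), against 1079 of 27025 genes with a window (3.99%) and 3.44% of all windows of the same length. The GAS, spelled TTC, any 3 bases, GAA, was matched in 8 of 27 (29.6%), against 9.55% of genes with a window. The following 60-base stretches, in gene orientation and with the ISRE core matches in capitals, are shown for genes of several roles whose values are described further on. Where a gene has its match on the other strand, the capitals read TTTC, 2 bases, TTTC.
Isg15, chr4:156200850-156200909, minus strand: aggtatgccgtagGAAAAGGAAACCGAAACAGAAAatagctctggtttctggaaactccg
Ifit1, chr19:34640779-34640838, plus strand: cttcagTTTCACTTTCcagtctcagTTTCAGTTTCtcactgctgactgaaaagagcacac
Oas3, chr5:120777700-120777759, minus strand: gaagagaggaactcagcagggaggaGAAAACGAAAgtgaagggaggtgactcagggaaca
Rsad2, chr12:26456538-26456597, minus strand: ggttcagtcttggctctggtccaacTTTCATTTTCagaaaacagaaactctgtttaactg
Cxcl10, chr5:92349068-92349127, minus strand: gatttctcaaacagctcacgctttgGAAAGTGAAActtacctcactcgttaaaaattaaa
Gbp3, chr3:142559980-142560039, plus strand: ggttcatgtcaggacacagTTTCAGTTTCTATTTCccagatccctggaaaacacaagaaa
Bst2, chr8:71537562-71537621, minus strand: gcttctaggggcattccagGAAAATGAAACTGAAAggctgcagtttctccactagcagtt
Ifitm2, chr7:140955973-140956032, minus strand: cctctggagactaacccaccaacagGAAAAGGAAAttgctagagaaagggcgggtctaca

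Isg15 held 3 overlapping matches within its stretch, and Ifit1, Gbp3 and Bst2 held 2 each. The matches in Ddx58, Ifih1, Eif2ak2 and Ifitm3 lay after the start site, as the map of match positions shows. A match describes letters in the window and not a bound site. Genes with a match differed among themselves: Ifit1 and Oas3 were higher in LMPP than in both other types, Gbp3 and Ifitm2 had their highest mean in GMP, and Bst2 had its highest mean in CLP (values below). Of the 16 genes with an ISRE core match, 11 were called higher in LMPP than in CLP, with a median log2 difference of 1.27, and of the 11 without one, 3 were, with a median of 0.40. Over all 12718 tested genes, 7.23% were called higher in that comparison and the median was 0.17. Against GMP the order was the other way round, with 10 of 16 called higher (median 1.06) with a match and 8 of 11 (median 1.45) without, where 21.3% of tested genes were called higher and their median was 0.24. For the GAS, 2 of 8 genes with a match (median 0.30) and 12 of 19 without (median 1.21) were called higher in LMPP than in CLP. In LMPP against GMP, 4 of 8 (median 0.82) with a GAS match and 14 of 19 (median 1.68) without were called higher.

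**Figure D1:**
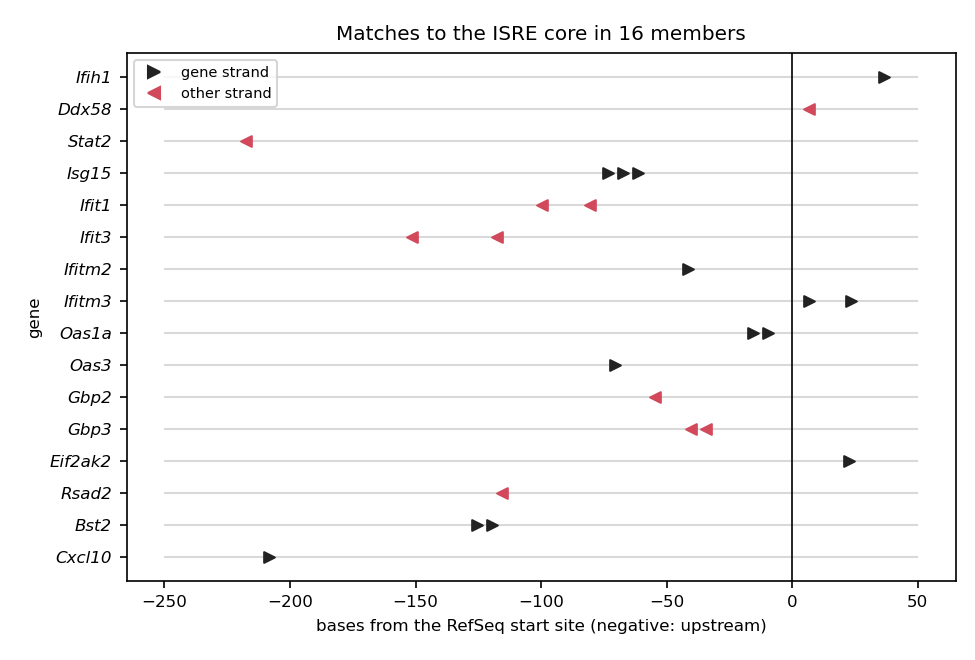
Position of each ISRE core match (triangle) in bases from the RefSeq start site, for the 16 genes with a match; the triangle points along the strand of the match. In 12 genes the matches lie before the start site, and in Ddx58, Ifih1, Eif2ak2 and Ifitm3 they lie after it.

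Values are TPM (a transcript level relative to the total of its library), and differences are on the log2(TPM + 1) scale, which understates the change of low genes. A gene was called when limma gave an adjusted p under 0.05 over the 12718 genes that reached 1 TPM in at least 4 libraries. All 38 members passed that filter. Ifit3 reached 1 TPM in 4 LMPP libraries and 1 CLP library, and Oas2 in 4 LMPP and 2 CLP libraries, so they passed mainly through LMPP. TPM keeps no sequencing depth, so the read numbers behind a value are unknown. A lower bulk level can come from fewer cells that express a gene or from less RNA per cell, and the 2 cannot be told apart.

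By summed levels, the labelled types carried their defining markers. The 6 CLP markers summed to 1415 to 2359 TPM in CLP, to 610.5 to 867.7 TPM in LMPP and to 3.46 to 7.14 TPM in GMP, the 7 GMP markers to 19459 to 23897 TPM in GMP and at most 1934 TPM elsewhere, and the 7 LMPP gate and stem cell markers to 722.5 to 985.5 TPM in LMPP and at most 387.8 TPM elsewhere. LMPP batch 2 replicate 1 and CLP batch 2 replicate 1 stood apart. Their 10 neutrophil markers summed to 26160 and 12076 TPM, against 14.8 to 1966 TPM in the other libraries, and their 7 matched erythroid markers to 28459 and 13550 TPM, against 39.7 to 2476 TPM. These are called the haemoglobin-rich pair. The 2 CLP libraries of batch 2 had lower sums of the LMPP gate and stem cell markers (84.1 and 85.2 TPM) than those of batch 1 (313.0 and 387.8 TPM). Of these 7 markers, 4 were called lower in CLP batch 2 (Flt3, Cd34, Mecom and Hlf) and 1 higher (Kit). Of the 6 CLP markers, Flt3, the gene of the sort marker Flk2, was called lower there and Blnk higher. Of all tested genes, 10.7% were called lower and 21.3% higher.

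Most of the 38 transcripts had their highest mean in LMPP. The mean over 4 libraries was highest in LMPP for 34 of the 38 genes, in CLP for Bst2 and Ifi27l2a, and in GMP for Ifitm2 and Gbp3. The commonest order, LMPP above CLP above GMP, was found in 28 genes. The shares of all tested genes with these orders were not counted. Tested genes as a whole also leaned to LMPP, with 64.6% above 0 in LMPP against CLP and 66.0% in LMPP against GMP. For 13 genes every LMPP library was above each of the 8 other libraries: Ddx58, Ifit1, Ifitm1, Ifitm3, Oas2, Oas3, Oasl2, Mx1, Eif2ak2, Parp9, Parp14, Rtp4 and Ifi44. Of all tested genes, 591 (4.65%) had that arrangement.

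**Figure D2:**
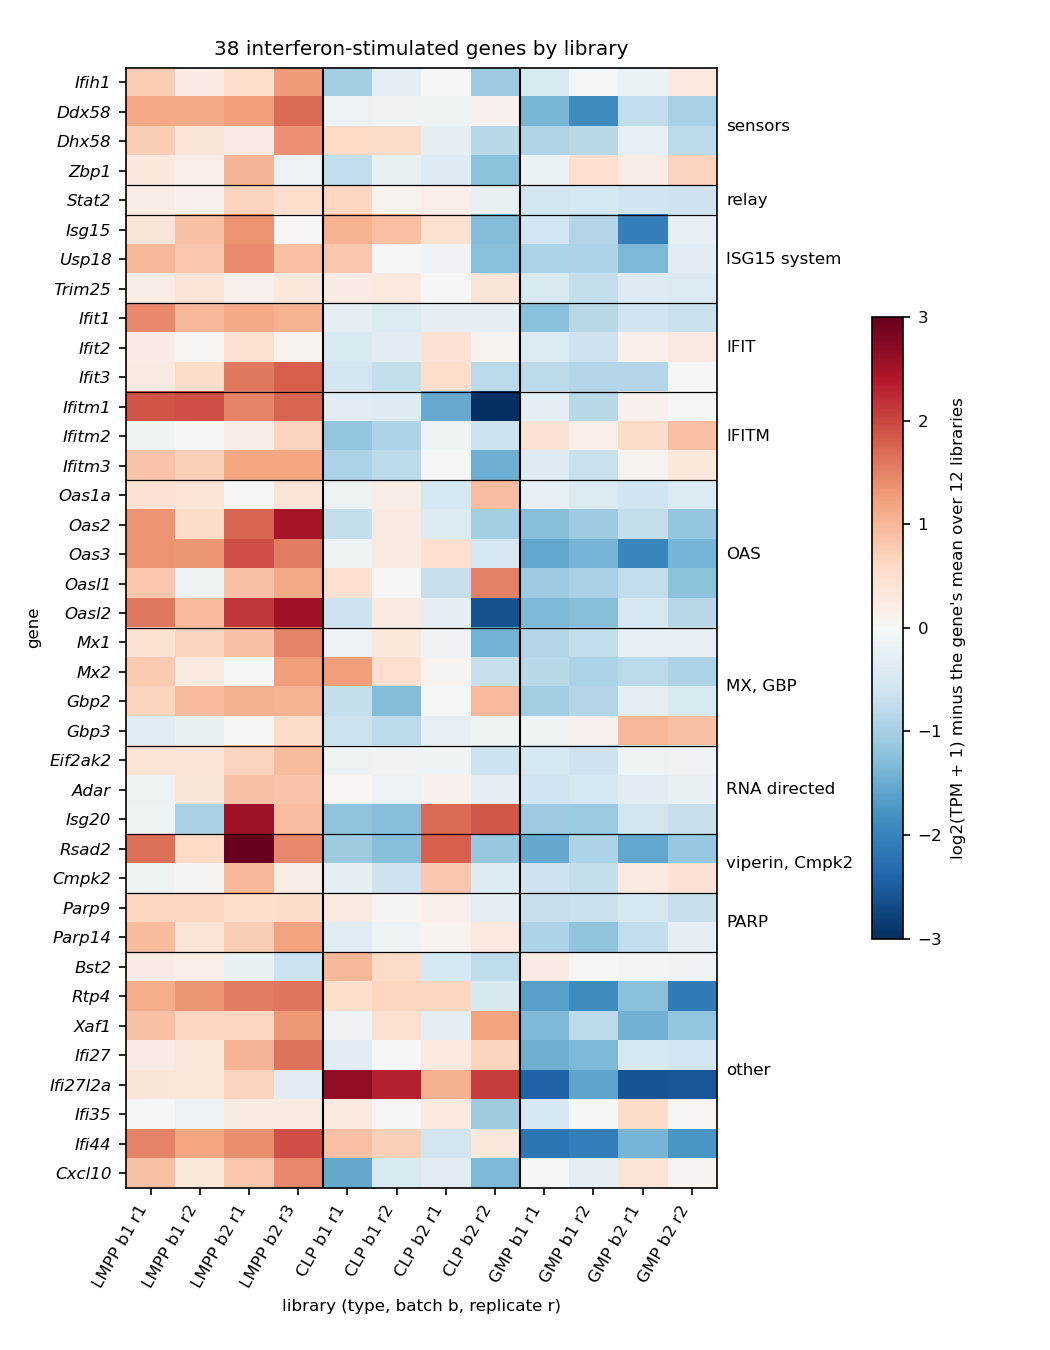
Heat map of the 38 genes (rows, grouped by role) in the 12 libraries (columns), coloured by log2(TPM + 1) minus the gene's mean over the 12 libraries. The 4 LMPP columns are red for most genes, Ifi27l2a is reddest in CLP, and Isg20 is red in the batch 2 columns of LMPP and CLP.

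Library by library, the median deviation of the 38 genes from their own means was 0.65 and 0.38 in LMPP batch 1 and 0.88 and 1.09 in LMPP batch 2 on the log2 scale. In CLP it was between -0.49 and 0.00, and in GMP between -0.83 and -0.42. The same median over all tested genes stayed between -0.24 and 0.24. No CLP or GMP library reached the lowest LMPP library. LMPP batch 2 replicate 3 was the highest of the 12 libraries for 14 genes and LMPP batch 2 replicate 1 for 12, while CLP batch 2 replicate 2 was the lowest for 9. Such counts were not made over all tested genes, whose median was also highest in LMPP batch 2 replicate 3, at 0.24.

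**Figure D3:**
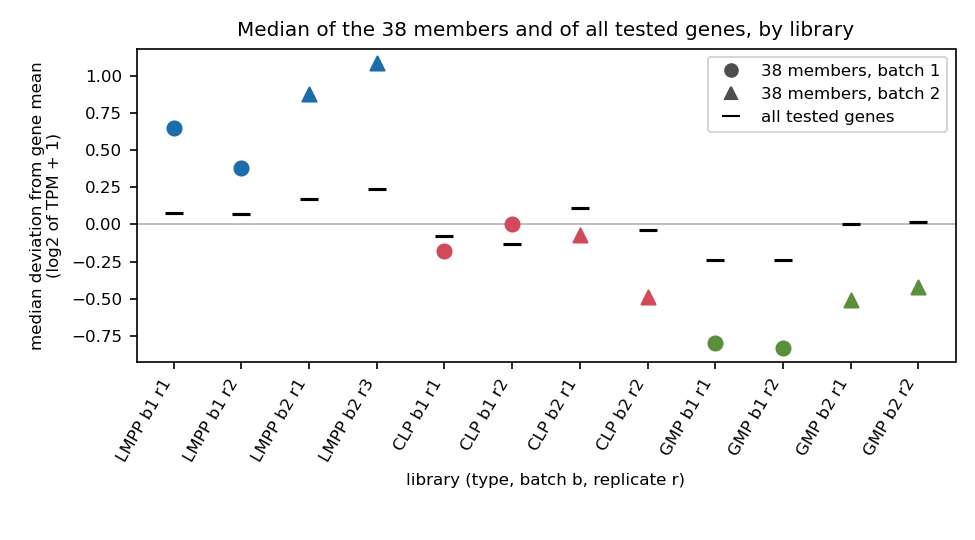
Median deviation of the 38 genes from their gene means (circles, batch 1; triangles, batch 2) and of all tested genes (dashes) in each library, in log2(TPM + 1). The 4 LMPP libraries lie between 0.38 and 1.09, above all CLP and GMP libraries.

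In LMPP against CLP, 18 of the 38 genes were called higher and 1 lower, Ifi27l2a. Of all tested genes, 7.23% were called higher and 2.80% lower. The median difference was 0.86 over the 38 genes and 0.17 over all tested genes, and 36 of the 38 lay above 0, against 64.6% of tested genes. In LMPP against GMP, 28 were called higher and 0 lower, where 21.3% and 7.62% of tested genes were called. At an unadjusted p under 0.05, 32 genes passed in either direction. The share of all tested genes at an unadjusted p was not counted, here or in the batch comparisons below. Those counts therefore cannot be set against other genes. The median was 1.46, against 0.24 over all tested genes. In CLP against GMP, 13 were called higher and 3 lower (Ifitm2, Cxcl10 and Gbp3), where 13.9% and 9.96% of tested genes were called, with a median of 0.56 against 0.09. The 3 comparisons share libraries and are not independent.

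**Figure D4:**
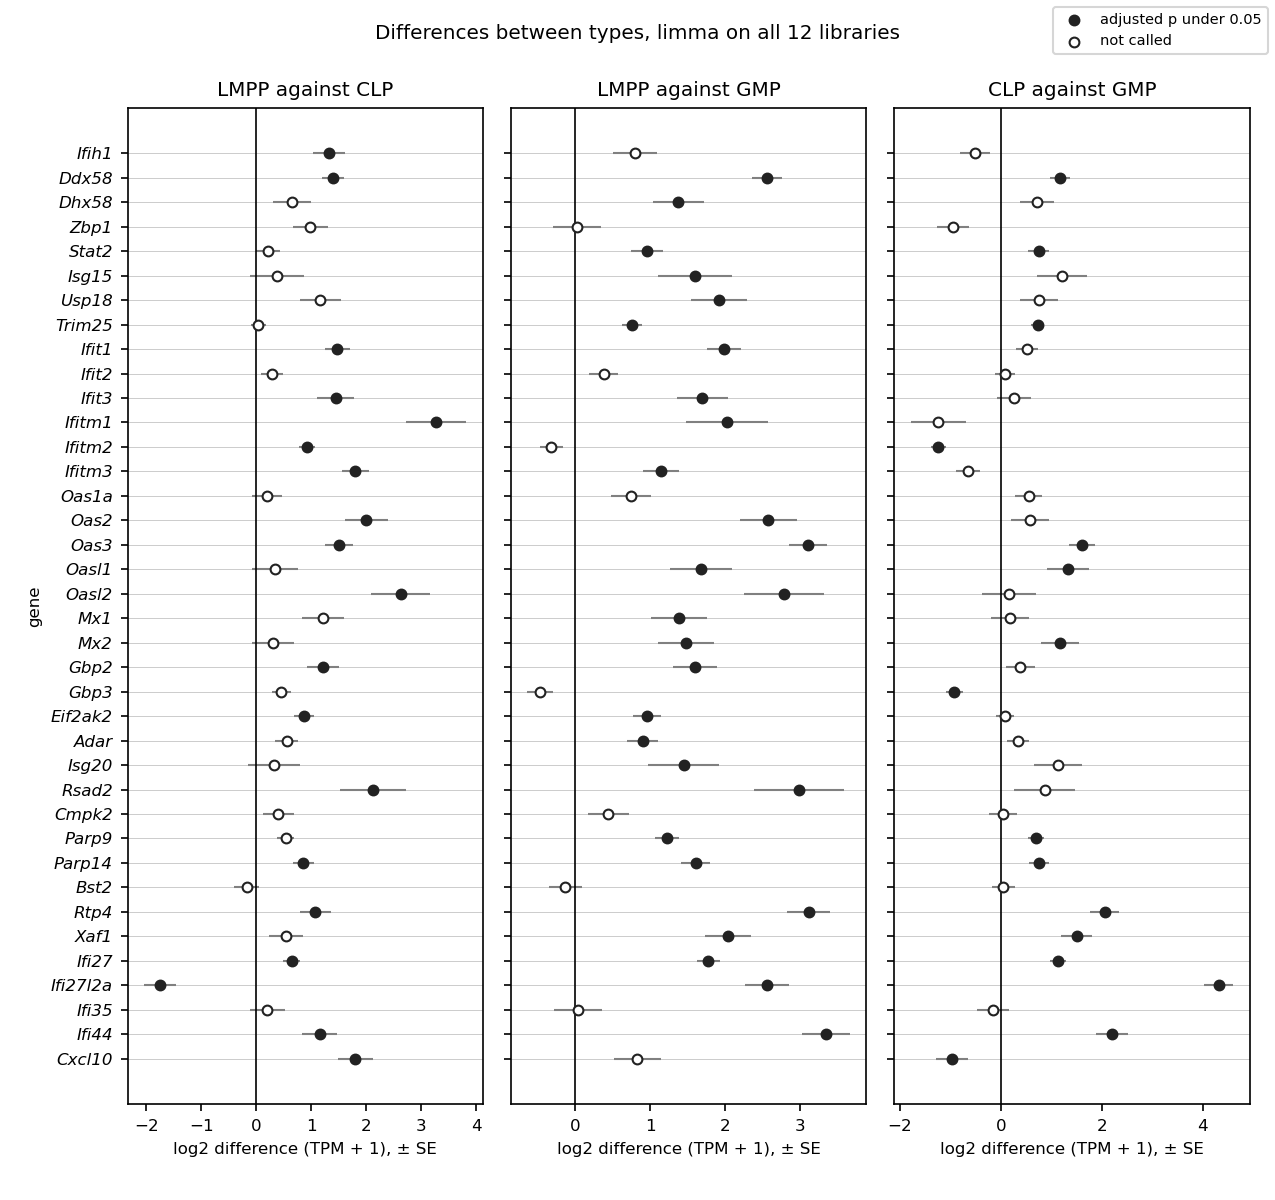
Log2 difference of each gene (point) with its standard error (bar) in the 3 type comparisons, from limma on all 12 libraries; filled points have an adjusted p under 0.05. Differences run from -1.76 to 3.27 in LMPP against CLP, from -0.47 to 3.35 in LMPP against GMP and from -1.24 to 4.32 in CLP against GMP.

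Scaling changed the balance in part. With median-ratio scaling of the libraries, the median of all tested genes moved from 0.168 to 0.014 in LMPP against CLP and from 0.244 to -0.004 in LMPP against GMP, while the median of the 38 genes was 0.69 and 1.28. The calls were then 13 higher and 1 lower against CLP (4.21% and 4.77% of tested genes), and 26 higher and 2 lower (Ifitm2 and Gbp3) against GMP (1646 and 1944 of 12657 tested genes). In CLP against GMP they were 13 higher and 5 lower (1476 and 1759 of 12657), with Zbp1 and Ifitm3 joining the lower genes.

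The count of 19 calls in LMPP against CLP moved with single libraries. It was 12 without LMPP batch 1 replicate 1, 12 without LMPP batch 2 replicate 3, and 12 without both CLP libraries of batch 2. The share of all tested genes called higher moved too, from 7.23% to 3.29%, 3.78% and 5.28%. Without the haemoglobin-rich pair the count was 15 (14 higher and 1 lower), with Ifit3 no longer past the filter. Of tested genes, 5.71% were then called higher and 1.30% lower. In LMPP against GMP without that pair, 26 were called higher and 0 lower, beside 20.5% and 7.64% of tested genes. In CLP against GMP 13 were called higher and 5 lower, beside 13.5% and 11.9%. In LMPP against CLP, 11 of the 19 calls held whichever single library was left out. Ifih1 (adjusted p up to 0.0543) and Parp14 (up to 0.063) ended without LMPP batch 1 replicate 1 or LMPP batch 2 replicate 3. Ifit3 (up to 0.0696) ended without either LMPP library of batch 2. Gbp2 (up to 0.0725) ended without either LMPP library of batch 1 or without replicate 1 of either CLP batch. Ifi27 (up to 0.0657) ended without LMPP batch 1 replicate 1, LMPP batch 2 replicate 3, CLP batch 1 replicate 1 or CLP batch 2 replicate 1. Rsad2 (up to 0.114) ended whenever 1 library other than CLP batch 2 replicate 1 was left out. For Ifi44 (up to 0.115) the exceptions were both CLP libraries of batch 1 and GMP batch 2 replicate 1. Rtp4 (up to 0.0967) ended without 1 of the LMPP libraries, CLP batch 1 replicate 1, CLP batch 2 replicate 2 or GMP batch 1 replicate 1.

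In LMPP against GMP, 24 of the 28 calls held whichever single library was left out. Ifitm1 ended without GMP batch 1 replicate 2 (adjusted p = 0.0539), and Mx1 (up to 0.0533) without LMPP batch 2 replicate 3 or GMP batch 1 replicate 1. Isg15 (up to 0.0908) ended without LMPP batch 1 replicate 2, LMPP batch 2 replicate 1 or 1 of the GMP libraries other than batch 2 replicate 2. Isg20 (up to 0.113) ended without LMPP batch 1 replicate 1, LMPP batch 2 replicate 1 or either GMP library of batch 2. In CLP against GMP, 11 of the 16 calls held. Parp14 ended without GMP batch 2 replicate 1 (adjusted p = 0.0502) and Stat2 (up to 0.0738) without CLP batch 1 replicate 1 or 1 of the GMP libraries other than batch 1 replicate 2. Oasl1 (up to 0.101) ended without 1 of the GMP libraries or 1 of the CLP libraries other than batch 2 replicate 1. Mx2 (up to 0.123) ended without 1 of the GMP libraries, LMPP batch 1 replicate 1 or 1 of the CLP libraries other than batch 2 replicate 2. Cxcl10 (up to 0.118) ended without 1 of the GMP libraries, LMPP or CLP batch 1 replicate 1, LMPP batch 2 replicate 1 or CLP batch 2 replicate 2.

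The sensors of foreign nucleic acid come first in the pathway. In the sentences that follow, the 4 values of a type stand in the order batch 1 replicate 1, batch 1 replicate 2, batch 2 replicate 1 and the last library of batch 2, which is replicate 3 in LMPP and replicate 2 in CLP and GMP. Ddx58, which encodes the viral RNA sensor RIG-I (chr4:40203773-40239828, minus strand), was at 28.6, 28.4, 30.9 and 42.3 TPM in the LMPP libraries, at 10.7, 11.3, 11.1 and 13.5 TPM in the CLP libraries, and at 4.13, 2.59, 6.96 and 5.72 TPM in the GMP libraries. The 3 types did not overlap, with LMPP highest and GMP lowest. The log2 difference was 1.39 ± 0.196 (SE, adjusted p = 0.00154) in LMPP against CLP, and 2.56 ± 0.196 (SE, adjusted p = 1.14e-05) in LMPP against GMP. CLP was above GMP by 1.17 ± 0.196 (SE, adjusted p = 0.00119). Ifih1, the sensor MDA5 of long double-stranded RNA, was at 14.2 ± 4.89, 5.21 ± 2.28 and 7.57 ± 1.9 TPM in LMPP, CLP and GMP (SD, n = 4). It was higher in LMPP than in CLP, by 1.32 ± 0.29 (SE, adjusted p = 0.0163), and the difference from GMP was not called (adjusted p = 0.0553). Of the alternatives, 6 called Ifih1 higher in LMPP than in GMP (adjusted p = 0.0158 to 0.0488). Dhx58, the helper helicase LGP2, was higher in LMPP than in GMP, by 1.38 ± 0.343 (SE, adjusted p = 0.011). Zbp1, a sensor of Z-form nucleic acid that can trigger cell death, was at 4.51 ± 2.04, 1.76 ± 0.789 and 4.29 ± 1.35 TPM in LMPP, CLP and GMP (SD, n = 4) and was called in none of the 3 type comparisons, though 9 alternatives called it lower in CLP than in GMP (adjusted p = 0.0261 to 0.0479, against 0.0501).

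Stat2 carries the signal from the receptor into the nucleus and is itself induced by interferon. It was at 9.98, 9.38, 14.2 and 12.7 TPM in the LMPP libraries, at 13.8, 9.22, 9.84 and 7.06 TPM in the CLP libraries, and at 5.46, 5.62, 5.25 and 5.16 TPM in the GMP libraries. Every LMPP and CLP library was above every GMP library, and LMPP and CLP overlapped. Stat2 was higher in LMPP than in GMP by 0.96 ± 0.214 (SE, adjusted p = 0.00586) and in CLP than in GMP by 0.75 ± 0.214 (SE, adjusted p = 0.0234).

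The ISG15 system tags proteins with the ubiquitin-like protein ISG15. The member with the highest mean was Trim25, a ubiquitin ligase that acts on RIG-I, at 54.3, 60.7, 50.3 and 57.4 TPM in the LMPP libraries, at 54.9, 56.9, 46.5 and 59.5 TPM in the CLP libraries, and at 33.4, 27.5, 34.95 and 34.1 TPM in the GMP libraries. LMPP and CLP overlapped and both lay above all GMP libraries. Trim25 was higher in LMPP than in GMP by 0.76 ± 0.135 (SE, adjusted p = 0.00161) and in CLP than in GMP by 0.73 ± 0.135 (SE, adjusted p = 0.00224). Isg15 itself was at 11.8 ± 5.01, 9.89 ± 5.61 and 3.4 ± 1.95 TPM in LMPP, CLP and GMP (SD, n = 4), and Usp18, the protease that removes ISG15 and dampens the receptor, at 8.24 ± 1.8, 3.59 ± 2.45 and 1.48 ± 0.743 TPM in LMPP, CLP and GMP (SD, n = 4). Both were called higher in LMPP than in GMP, with log2 differences of 1.60 and 1.92. None of the 3 was called between LMPP and CLP.

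IFIT proteins bind viral RNA and block its translation. Ifit2 had the highest mean of the 3 genes, at 7.52, 6.54, 9.02 and 6.82 TPM in the LMPP libraries, at 4.23, 4.76, 8.71 and 6.83 TPM in the CLP libraries, and at 4.39, 3.73, 7.02 and 7.67 TPM in the GMP libraries. The types overlapped, and none of its type comparisons was called. Ifit1, which recognises the ends of foreign RNA, was low, at 5.2 ± 0.899, 1.22 ± 0.0906 and 0.568 ± 0.294 TPM in LMPP, CLP and GMP (SD, n = 4). It was called higher in LMPP than in CLP by 1.47 ± 0.224 (SE, adjusted p = 0.00241) and than in GMP by 1.99 ± 0.224 (SE, adjusted p = 9.42e-05). Ifit3 was at 1.32 to 5.69 TPM in LMPP and at or under 1.77 TPM in every other library. Its calls were 1.44 ± 0.341 (SE, adjusted p = 0.0227) against CLP and 1.70 ± 0.341 (SE, adjusted p = 0.00337) against GMP. The 3 genes lie in 1 cluster on chromosome 19, with 7111 bases between Ifit2 and Ifit3 and 52139 between Ifit3 and Ifit1.

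IFITM proteins sit in cell membranes and restrict virus entry, and the transcripts of Ifitm2 and Ifitm3 had the highest means of the list in each type. Ifitm3 (chr7:141009586-141010770, minus strand) was at 575, 522, 728 and 726 TPM in the LMPP libraries, at 164, 184, 304 and 115 TPM in the CLP libraries, and at 243, 199, 342 and 397 TPM in the GMP libraries. Every LMPP library was above every CLP and GMP library. The log2 difference was 1.80 ± 0.243 (SE, adjusted p = 0.00123) against CLP, a call that no alternative ended, and 1.15 ± 0.243 (SE, adjusted p = 0.00456) against GMP. Ifitm1 (chr7:140967221-140969825, plus strand) was at 309, 321, 233 and 281 TPM in the LMPP libraries, at 64.97, 62.95, 28.3 and 5.11 TPM in the CLP libraries, and at 67.2, 46.04, 90.5 and 79.5 TPM in the GMP libraries. The LMPP libraries again lay above all others, and the lowest values were the CLP libraries of batch 2. LMPP exceeded CLP by 3.27 ± 0.548 (SE, adjusted p = 0.00409) and GMP by 2.03 ± 0.548 (SE, adjusted p = 0.016). Ifitm2 (chr7:140954837-140955987, minus strand) was at 406, 437, 520.4 and 721 TPM in the LMPP libraries, at 193, 233, 407 and 284 TPM in the CLP libraries, and at 594, 505, 663 and 824 TPM in the GMP libraries. Its GMP libraries lay above its CLP libraries and overlapped with LMPP. CLP was lower than GMP, at -1.24 ± 0.153 (SE, adjusted p = 0.000154), and LMPP was higher than CLP by 0.92 ± 0.153 (SE, adjusted p = 0.00401).

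The 3 Ifitm genes lie side by side on chromosome 7, and their proportions were described as ratios of TPM within a library, with no test. The ratio of Ifitm2 to Ifitm3 TPM was 0.706 to 0.993 in LMPP, 1.18 to 2.47 in CLP and 1.94 to 2.54 in GMP, so that LMPP did not overlap with the others. The ratio of Ifitm1 to Ifitm3 was 0.320 to 0.615 in LMPP and 0.201 to 0.276 in GMP. In CLP it was 0.395 and 0.343 in batch 1 and 0.0929 and 0.0444 in batch 2. These genes have similar sequences, and reads shared between them were divided by estimation, so the split is uncertain.

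OAS enzymes make short oligoadenylates that activate the RNA-cutting enzyme RNase L. Oasl2, a related protein with ubiquitin-like domains, had the highest LMPP mean of the 5 and was at 40.2, 26.2, 60.4 and 78.8 TPM in the LMPP libraries, at 8.06, 15.6, 10.2 and 1.26 TPM in the CLP libraries, and at 4.44, 4.75, 8.75 and 6.79 TPM in the GMP libraries. LMPP lay above all other libraries, and CLP batch 2 replicate 2 was the lowest of the 12. LMPP exceeded CLP by 2.62 ± 0.533 (SE, adjusted p = 0.011) and GMP by 2.79 ± 0.533 (SE, adjusted p = 0.00248). Oas3 (chr5:120753098-120777661, minus strand) was at 18.2, 17.96, 27.8 and 21.1 TPM in the LMPP libraries, at 5.96, 8.08, 9.76 and 4.37 TPM in the CLP libraries, and at 1.58, 1.89, 0.94 and 1.88 TPM in the GMP libraries. The 3 types did not overlap. The log2 differences were 1.5 ± 0.256 (SE, adjusted p = 0.00464) in LMPP against CLP, 3.11 ± 0.256 (SE, adjusted p = 1.47e-05) in LMPP against GMP and 1.61 ± 0.256 (SE, adjusted p = 0.000807) in CLP against GMP. Oas2 was at 6.52, 3.33, 8.86 and 15.6 TPM in the LMPP libraries, at 0.79, 2.54, 1.23 and 0.46 TPM in the CLP libraries, and at 0.23, 0.4, 0.8 and 0.33 TPM in the GMP libraries. Each LMPP library was above the other 8, and 4 of 4 GMP libraries lay under 1 TPM. The differences were 2.00 ± 0.384 (SE, adjusted p = 0.00829) against CLP and 2.58 ± 0.384 (SE, adjusted p = 0.000553) against GMP.

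Oasl1, which holds back translation of Irf7, was at 5.66, 2.41, 5.91 and 7.21 TPM in the LMPP libraries, at 4.32, 2.82, 1.31 and 9.69 TPM in the CLP libraries, and at 0.78, 0.92, 1.26 and 0.6 TPM in the GMP libraries. CLP spanned the whole LMPP range, and GMP lay below LMPP. The call in CLP against GMP was 1.34 ± 0.414 (SE, adjusted p = 0.0345), and in LMPP against GMP 1.68 ± 0.414 (SE, adjusted p = 0.0105). Oas1a was at 16.9, 16.4, 12.8 and 16.6 TPM in the LMPP libraries, at 10.99, 14.5, 8.35 and 24.6 TPM in the CLP libraries, and at 10.2, 8.85, 7.81 and 9.02 TPM in the GMP libraries. Its LMPP libraries lay above its GMP libraries, and CLP overlapped with both. It was called in no type comparison, at an adjusted p of 0.0549 in LMPP against GMP. Alternatives that called it numbered 8 in LMPP against GMP (adjusted p = 0.00252 to 0.0486) and 2 in CLP against GMP.

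MX and GBP proteins are large GTPases, MX acting against viruses and GBP against intracellular microbes. Gbp3 (chr3:142560026-142573209, plus strand) was at 13.6, 15.1, 17.4 and 26.5 TPM in the LMPP libraries, at 11.04, 9.8, 14.8 and 15.8 TPM in the CLP libraries, and at 16.1, 19.3, 36.2 and 33.4 TPM in the GMP libraries. GMP lay above CLP without overlap. CLP was lower than GMP, at -0.92 ± 0.171 (SE, adjusted p = 0.00225). LMPP against GMP was not called for Gbp3, though 8 alternatives called LMPP lower (adjusted p = 0.00431 to 0.0497). Gbp2, 47392 bases away on chromosome 3, went another way and was at 12.3, 15.4, 16.5 and 16.2 TPM in the LMPP libraries, at 4.12, 2.39, 6.97 and 15.5 TPM in the CLP libraries, and at 3.07, 3.53, 5.83 and 5.11 TPM in the GMP libraries. CLP batch 2 replicate 2 reached the LMPP range while the other CLP libraries lay below it. LMPP exceeded CLP by 1.21 ± 0.296 (SE, adjusted p = 0.0256) and GMP by 1.60 ± 0.296 (SE, adjusted p = 0.00206). Mx1, of which C57BL/6 mice are known to carry a defective copy, was at 4.21 ± 1.75, 1.36 ± 0.996 and 0.943 ± 0.434 TPM in LMPP, CLP and GMP (SD, n = 4), and Mx2 at 2.21 ± 1.24, 1.78 ± 1.53 and 0.095 ± 0.058 TPM in LMPP, CLP and GMP (SD, n = 4). Both were called higher in LMPP than in GMP, by 1.39 and 1.48 on the log2 scale, and Mx2 also in CLP than in GMP, by 1.18.

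All 3 RNA-directed effectors were called higher in LMPP than in GMP, as were 21.3% of tested genes. Eif2ak2, the kinase PKR that halts translation when it meets double-stranded RNA, was at 36.8, 35.8, 44.98 and 53.7 TPM in the LMPP libraries, at 24.5, 25.1, 24.7 and 17.1 TPM in the CLP libraries, and at 18.6, 17.5, 24.3 and 25.4 TPM in the GMP libraries. LMPP lay above the other types, which overlapped. The differences were 0.87 ± 0.181 (SE, adjusted p = 0.0119) from CLP and 0.96 ± 0.181 (SE, adjusted p = 0.00232) from GMP. Adar, an RNA editing enzyme, was at 12.5 ± 4.21, 7.91 ± 1.19 and 6.02 ± 0.825 TPM in LMPP, CLP and GMP (SD, n = 4) and its LMPP against GMP difference was 0.90 ± 0.212 (SE, adjusted p = 0.00829). Isg20, an RNA exonuclease, was at 16.1, 8.57, 108 and 34.8 TPM in the LMPP libraries, at 7.21, 6.76, 60 and 67.7 TPM in the CLP libraries, and at 7.78, 7.66, 11.9 and 10.8 TPM in the GMP libraries. It was higher in LMPP than in GMP by 1.45 ± 0.471 (SE, adjusted p = 0.0373), and it also differed between batches in LMPP and CLP, as described with the batches.

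Rsad2 encodes viperin, which makes a chain-terminating nucleotide against viral polymerases, and Cmpk2, a nucleotide kinase, is its neighbour on chromosome 12 with 12751 bases between them. Rsad2 was at 13.1, 5.83, 38.2 and 11.2 TPM in the LMPP libraries, at 1.14, 0.86, 14.6 and 1.05 TPM in the CLP libraries, and at 0.55, 1.37, 0.53 and 1.05 TPM in the GMP libraries. CLP batch 2 replicate 1 was above 3 of the 4 LMPP libraries, and the other CLP libraries lay with GMP. LMPP exceeded CLP by 2.12 ± 0.598 (SE, adjusted p = 0.0439) and GMP by 2.99 ± 0.598 (SE, adjusted p = 0.00328). The highest LMPP and the highest CLP value of Rsad2 were those of the haemoglobin-rich pair, with the neutrophil and erythroid sums given above; their part in the result was not tested. The call against CLP ended in 19 of 26 alternatives (adjusted p up to 0.248) and that against GMP in 1 (adjusted p = 0.0735). The setting without that pair was not among them. Cmpk2 was at 7.53 ± 3.24, 5.7 ± 3.45 and 5.39 ± 2.54 TPM in LMPP, CLP and GMP (SD, n = 4), with its highest LMPP and CLP values, 12.3 and 10.8 TPM, in the same pair, and was called in no type comparison.

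Parp9 and Parp14 are ADP-ribosyltransferase family members that act together in interferon responses. Parp14 was at 25.96, 17.4, 22.4 and 31.4 TPM in the LMPP libraries, at 9.98, 11.6, 14.03 and 16.1 TPM in the CLP libraries, and at 6.43, 5.06, 7.38 and 10.5 TPM in the GMP libraries. LMPP lay above CLP and CLP above GMP apart from an overlap of CLP with GMP batch 2 replicate 2. The differences were 0.85 ± 0.192 (SE, adjusted p = 0.0181) in LMPP against CLP, 1.61 ± 0.192 (SE, adjusted p = 0.000128) in LMPP against GMP and 0.76 ± 0.192 (SE, adjusted p = 0.0133) in CLP against GMP. Parp9, at 21.1 ± 0.879, 14.4 ± 2.47 and 8.38 ± 0.563 TPM in LMPP, CLP and GMP (SD, n = 4), was called higher in LMPP than in GMP by 1.23 and in CLP than in GMP by 0.70, and just missed the threshold in LMPP against CLP (adjusted p = 0.051). In that last comparison 3 alternatives called it higher in LMPP (adjusted p = 0.0349 to 0.0485).

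Among the remaining effectors, Ifi27l2a differed most between types. This small membrane protein gene (chr12:103442167-103443680, minus strand) was at 26.9, 26.6, 33.8 and 16.3 TPM in the LMPP libraries, at 137, 107, 44.3 and 89.9 TPM in the CLP libraries, and at 3.04, 6.25, 2.63 and 2.64 TPM in the GMP libraries. The types did not overlap, with CLP highest and GMP lowest. CLP exceeded GMP by 4.32 ± 0.291 (SE, adjusted p = 1.79e-06), LMPP exceeded GMP by 2.56 ± 0.291 (SE, adjusted p = 0.000102) and LMPP was lower than CLP, at -1.76 ± 0.291 (SE, adjusted p = 0.00385). Its neighbour Ifi27, 1927 bases away, had another order and was at 103, 110.03, 175 and 268 TPM in the LMPP libraries, at 69.6, 86.8, 107 and 138 TPM in the CLP libraries, and at 30.6, 33.4, 60.5 and 58.1 TPM in the GMP libraries. In each type the higher values were those of batch 2, and GMP lay below the other types. The differences were 0.64 ± 0.158 (SE, adjusted p = 0.0264) in LMPP against CLP, 1.78 ± 0.158 (SE, adjusted p = 2.26e-05) in LMPP against GMP and 1.14 ± 0.158 (SE, adjusted p = 0.000338) in CLP against GMP.

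Ifi44, an antiviral effector, was at 19.4, 15.6, 18.2 and 26.9 TPM in the LMPP libraries, at 12.6, 10.9, 3.96 and 8.26 TPM in the CLP libraries, and at 0.61, 0.73, 1.75 and 1.17 TPM in the GMP libraries. The types did not overlap. LMPP exceeded GMP by 3.35 ± 0.319 (SE, adjusted p = 3.28e-05), the largest difference of the 38 genes in that comparison, and CLP exceeded GMP by 2.2 ± 0.319 (SE, adjusted p = 0.000455). The call in LMPP against CLP was 1.15 ± 0.319 (SE, adjusted p = 0.0413). Rtp4, a chaperone of membrane receptors, was at 19.8, 22.8, 26.99 and 28.2 TPM in the LMPP libraries, at 12.8, 13.9, 13.96 and 5.81 TPM in the CLP libraries, and at 2.07, 1.58, 3.01 and 1.2 TPM in the GMP libraries. Again no types overlapped. The differences were 1.07 ± 0.285 (SE, adjusted p = 0.0357) in LMPP against CLP, 3.12 ± 0.285 (SE, adjusted p = 2.52e-05) in LMPP against GMP and 2.06 ± 0.285 (SE, adjusted p = 0.000331) in CLP against GMP.

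Xaf1, a partner of the apoptosis inhibitor XIAP, was at 31.3, 26.7, 25.97 and 42.6 TPM in the LMPP libraries, at 15.3, 23.8, 13.4 and 39.96 TPM in the CLP libraries, and at 6.04, 9.2, 5.55 and 6.76 TPM in the GMP libraries. LMPP and CLP overlapped and lay above GMP. The calls were 2.04 ± 0.307 (SE, adjusted p = 0.000601) in LMPP against GMP and 1.51 ± 0.307 (SE, adjusted p = 0.00403) in CLP against GMP. Cxcl10, a chemokine that attracts T cells, was at 4.82, 3, 4.64 and 7.53 TPM in the LMPP libraries, at 0.08, 1.3, 1.5 and 0.24 TPM in the CLP libraries, and at 2.16, 1.57, 3.17 and 2.32 TPM in the GMP libraries. CLP lay below LMPP and below GMP, and 2 of 4 CLP libraries were under 1 TPM. LMPP exceeded CLP by 1.80 ± 0.315 (SE, adjusted p = 0.00531), and CLP was lower than GMP at -0.97 ± 0.315 (SE, adjusted p = 0.0428). LMPP against GMP was not called for Cxcl10, though 4 alternatives called LMPP higher (adjusted p = 0.0136 to 0.0468). Ifi35, at 8.52 ± 1.49, 7.77 ± 3.15 and 8.49 ± 2.83 TPM in LMPP, CLP and GMP (SD, n = 4), was called in no type comparison.

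Bst2 encodes tetherin, which holds budding viruses at the cell surface and also marks plasmacytoid dendritic cells. It was at 56.7, 55.6, 41.1 and 30.2 TPM in the LMPP libraries, at 97.3, 72.3, 33.1 and 28.01 TPM in the CLP libraries, and at 57.2, 49.1, 45.5 and 44.2 TPM in the GMP libraries. The 2 CLP libraries of batch 1 were the highest of the 12 and those of batch 2 were low, so CLP spanned the range of both other types. None of the 3 type comparisons was called, and 1 alternative called CLP against GMP (adjusted p = 0.0362). The 8 plasmacytoid dendritic cell markers, 5 of them tested, summed to 297.9 and 186.0 TPM in the CLP libraries of batch 1 and to 20.9 and 7.22 TPM in those of batch 2, against 15.1 to 31.6 TPM in LMPP and 3.29 to 5.83 TPM in GMP. No marker of this list was at 0 in every CLP library, and 3 were at 0 in every GMP library. Their part in the Bst2 result was not tested.

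**Figure D5:**
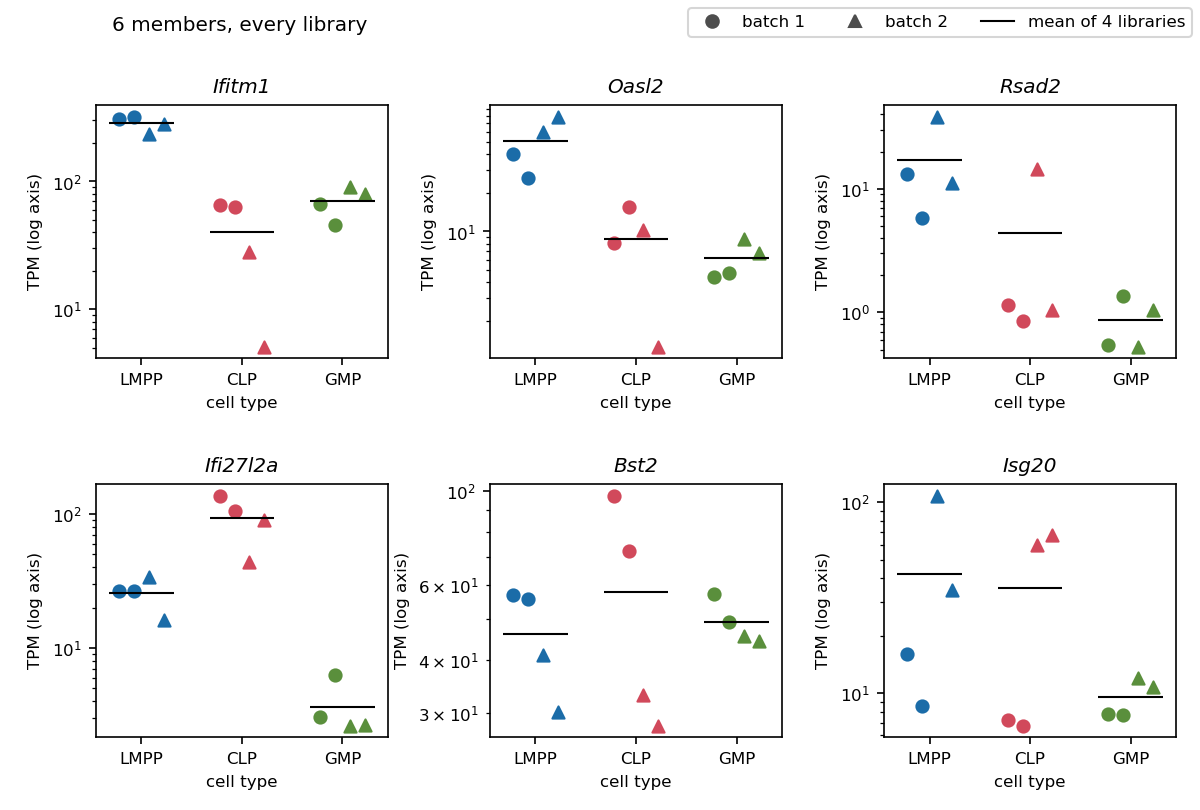
TPM of 6 genes on log axes in every library, by type (colour) and batch (circle, batch 1; triangle, batch 2), with the mean of 4 libraries as a line. Ifitm1 and Oasl2 are highest in all 4 LMPP libraries, Ifi27l2a is highest in CLP, and Bst2 and Isg20 separate by batch within CLP.

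Within LMPP, 2 of the 38 genes were called higher in batch 2 than in batch 1 (2.19% of tested genes were) and 0 lower (2.42% were), and 9 had an unadjusted p under 0.05. These were Isg20, by 2.29 ± 0.437 (SE, adjusted p = 0.0189), and Ifi27, by 1.02 ± 0.208 (SE, adjusted p = 0.0247). Without the haemoglobin-rich pair, a setting chosen after seeing the data in which LMPP batch 2 is 1 library assumed to vary like the others, 5 were called, 4 higher and 1 lower, beside 6.38% and 4.77% of tested genes. The count was 0 without LMPP batch 1 replicate 2, where the adjusted p of Isg20 was 0.131 and 0.311% of tested genes were higher and 0.981% lower. It was 1 without LMPP batch 1 replicate 1 and 1 without LMPP batch 2 replicate 3, and the call of Ifi27 ended in each of these 3 cases (adjusted p up to 0.117).

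Within CLP, 4 were called higher in batch 2 (21.3% of tested genes were) and 3 lower (10.7% were), shares near or below those of all genes. Isg20 was higher by 3.02 ± 0.437 (SE, adjusted p = 0.00077), Gbp2 by 1.46 ± 0.347 (SE, adjusted p = 0.01), Ifitm2 by 0.68 ± 0.211 (SE, adjusted p = 0.0331) and Ifi27 by 0.64 ± 0.208 (SE, adjusted p = 0.0398). Ifitm1, at -2.28 ± 0.534 (SE, adjusted p = 0.00931), Bst2, at -1.43 ± 0.196 (SE, adjusted p = 0.000578), and Dhx58, at -1.13 ± 0.37 (SE, adjusted p = 0.0399), were lower. The CLP libraries of the 2 batches also differed in other markers: 9 B lineage markers summed to 910.5 and 37.4 TPM in batch 1 and to 4543 and 5747 TPM in batch 2, beside the plasmacytoid dendritic cell, neutrophil, erythroid and stem cell sums given above. Their part in these batch differences was not tested.

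The CLP count rested on few libraries. It was 18 (6 higher and 12 lower) without CLP batch 2 replicate 1, 11 (7 and 4) without CLP batch 2 replicate 2, 4 without CLP batch 1 replicate 1 and 2 without CLP batch 1 replicate 2. The shares of tested genes called higher and lower were 22.8% and 17.3%, 20.2% and 7.99%, 16.6% and 6.79%, and 12.4% and 5.47% in these 4 settings. Each of these settings leaves 1 library in a CLP batch, assumed to vary like the others. Without the haemoglobin-rich pair, CLP batch 2 is likewise replicate 2 alone. Isg15 (-1.38 with all libraries) was then lower by 2.26 on the log2 scale and Oasl2 (-1.28) lower by 2.44, both resting on that library. With median-ratio scaling the split of the 7 calls was 2 higher and 5 lower (2024 and 1872 of 12657 tested genes), and with quantile normalization 9 calls split into 2 higher and 7 lower (13.3% and 13.7% of tested genes). The calls of Bst2 and Isg20 held in every alternative run. Those of Ifitm1 (adjusted p = 0.0503) and Gbp2 (0.0833) ended without CLP batch 1 replicate 2, and that of Ifitm2 (up to 0.169) without 1 of the CLP libraries other than batch 2 replicate 2. Ifi27 (up to 0.208) and Dhx58 (up to 0.165) ended without 1 of the libraries of LMPP batch 1, CLP batch 1 and GMP batch 1, or without CLP batch 2 replicate 2, and Ifi27 also ended without either GMP library of batch 2.

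Within GMP, 2 were called higher in batch 2 (6.16% of tested genes were) and 0 lower (2.07% were), and 6 had an unadjusted p under 0.05. These were Gbp3, by 0.94 ± 0.219 (SE, adjusted p = 0.0285), and Ifi27, by 0.87 ± 0.208 (SE, adjusted p = 0.0321). Both calls ended with median-ratio scaling or quantile normalization, where 1.24% and 1.74% of tested genes were called higher. Neither held when any GMP library was left out, settings that leave 1 GMP library in a batch. A smaller share of all tested genes was called higher in those settings too. The count was 4 without CLP batch 2 replicate 1 and 4 without CLP batch 2 replicate 2, and 8 without the haemoglobin-rich pair. In these settings 10.5%, 10.3% and 14.7% of tested genes were called higher, up from 6.16%. Ifi27 was thus the gene called higher in batch 2 in each of the 3 types.

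Type differences were also taken within each batch, from a fit with a mean for each type and batch. In LMPP against CLP, 6 genes were called higher in batch 1 (4.84% of tested genes were) and 19 in batch 2 (13.1% were). The 6 were Ifitm1, Ifitm2, Ifitm3, Ifit1, Ddx58 and Gbp2, and Ifi27l2a was the gene called lower in both batches. The median difference was 0.54 in batch 1 and 1.03 in batch 2, against 0.18 and 0.15 over all tested genes. The change of the difference from batch 1 to batch 2 was called for 0 of the 38 genes (8.58% of tested genes were called in either direction), and 11 had an unadjusted p under 0.05.

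In LMPP against GMP, 19 were called higher in batch 1 (15.6% of tested genes were) and 25 in batch 2 (15.0% were). The medians were 1.35 and 1.46. The change between batches was called for 0 genes (0.0157% of tested genes were), and 1 had an unadjusted p under 0.05. In CLP against GMP, 12 were called higher in batch 1 (9.98% of tested genes were) and 9 in batch 2 (14.2% were), with medians of 0.75 and 0.34. The change between batches was called for 2 genes (5.48% of tested genes were). For Isg20, CLP was above GMP by 2.39 ± 0.437 (SE, adjusted p = 0.00326) in batch 2 and differed by -0.13 ± 0.437 (SE, adjusted p = 0.879) in batch 1, a change of 2.52 ± 0.617 (SE, adjusted p = 0.045). For Bst2, CLP was above GMP by 0.65 ± 0.196 (SE, adjusted p = 0.0462) in batch 1 and the batch 2 difference was -0.54 ± 0.196 (SE, adjusted p = 0.0665), a change of -1.20 ± 0.277 (SE, adjusted p = 0.0357).

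Upstream of the 38 genes, the interferons themselves were listed at or near 0. The 10 ligands of the list summed to at most 1.80 TPM in any library and none passed the filter. Of the 14 receptor and relay genes, 13 were tested. None was called between LMPP and CLP, where 7.23% of tested genes were called higher and 2.80% lower. In LMPP against GMP, 6 were higher and 2 lower, beside 21.3% and 7.62% of tested genes. In CLP against GMP, 5 were higher and 1 lower, beside 13.9% and 9.96%. The median was 0.28, 0.24 and 0.19 in the 3 comparisons and 0.17, 0.24 and 0.09 over all tested genes. Irf7, the amplifier of interferon production, was at 8.04 ± 3.42, 4.92 ± 2.89 and 1.48 ± 0.539 TPM in LMPP, CLP and GMP (SD, n = 4), and LMPP exceeded GMP by 1.82 ± 0.365 (SE, adjusted p = 0.00337). Irf9, the DNA-binding partner of Stat2, was at 27.5 ± 4.73, 18.6 ± 6.07 and 9.38 ± 1.91 TPM, a difference of 1.46 ± 0.235 between LMPP and GMP (SE, adjusted p = 0.000928). Irf1, Jak1 and Ifnar1 were also higher in LMPP than in GMP. Ifngr1, a chain of the interferon gamma receptor, went the other way, at 45.9 ± 8.17, 40.8 ± 15.9 and 142.2 ± 8.55 TPM, and so did Ifngr2.

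Of the 11 genes that relay nucleic acid sensing, 10 were tested. In LMPP against CLP, 0 were called higher and 1 lower, Tlr9. In LMPP against GMP, Tlr7 and Tbk1 were higher and Ikbke lower, and in CLP against GMP, Tlr7 and Tlr9 were higher and Ikbke and Ticam1 lower. With 21.3% of tested genes called higher and 7.62% lower in LMPP against GMP, and 13.9% and 9.96% in CLP against GMP, these few calls do not set the list apart from other genes. Tlr7, an endosomal receptor of single-stranded RNA, was at 18.0 ± 9.31, 16.8 ± 16.7 and 0.682 ± 0.526 TPM in LMPP, CLP and GMP. LMPP exceeded GMP by 3.42 ± 0.603 (SE, adjusted p = 0.00158).

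The list of interferon gamma-type GTPases and antigen presentation genes held 19 entries, of which 17 were matched and 16 tested. In LMPP against CLP, 4 were called higher and 0 lower, in LMPP against GMP 10 higher and 1 lower (Psmb10), and in CLP against GMP 8 higher and 1 lower (Psmb10). Of all tested genes, 7.23%, 21.3% and 13.9% were called higher in these comparisons and 2.80%, 7.62% and 9.96% lower. The 4 were Tgtp1, Tgtp2, Igtp and Irgm1, GTPases that act on the vacuoles of intracellular microbes. Tgtp1 was at 38 ± 3.17, 7.23 ± 2.57 and 1.76 ± 0.602 TPM, and LMPP exceeded CLP by 2.29 ± 0.207 (SE, adjusted p = 0.00012). Tgtp2, a near copy whose reads cannot be parted from it with certainty, was at 67.5 ± 4.23, 24.8 ± 6.55 and 13.7 ± 1.42 TPM.

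Sca1, a surface protein used to gate the types, is encoded by Ly6a, itself known as an interferon-inducible gene. Ly6a was at 119.6 ± 28.9, 24.3 ± 15.3 and 7.39 ± 2.35 TPM in LMPP, CLP and GMP (SD, n = 4), the same order as most of the 38 genes. Since the gate chose cells by this protein, its level is no finding between the types, and its part in the differences of the 38 genes was not tested.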

How the data were processed

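Levels of 38 interferon-stimulated genes were read from 12 bulk RNA-seq libraries, 4 each of LMPP, CLP and GMP, grouped by sample title. The authors deposited 1 table of TPM for 38924 Ensembl IDs, in which libraries sum to between 999999 and 1000001. The submitters' processing notes name mm10 as the build, and RSEM 1.2.12, Bowtie2 2.2.0 and edgeR 3.10.0 as tools. Order, settings and strandedness are not stated. RSEM divides shared reads by estimation, so near copies (the Ifitm, Oas, Gbp, Tgtp and Ifi27 families, and Ifit3) are uncertain. TPM keeps no depth, and no counting interval can be given. Another 17 columns matched no sample and were used in no step.

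Ensembl IDs were given symbols and coordinates through GENCODE for mm10. The 12718 genes that reached 1 TPM in 4 or more libraries were tested on log2(TPM + 1) with limma 3.58.1 in R 4.3.3, two-sided, with a variance trend. The type comparisons used an additive batch term (8 residual degrees of freedom), and the batch comparisons and the differences within a batch used a mean for each type and batch (6 residual degrees of freedom). Benjamini-Hochberg adjustment covered all tested genes, and a gene was called under 0.05. The fit was tested on simulated data. Every library's value is printed for up to 6 called members with the largest difference per type comparison, up to 4 per batch comparison and the highest member of each role. The values of Oas1a are also printed, outside this rule. Of the pathway lists, up to 3 genes per comparison and those behind counts of 5 or fewer are named; Ly6a, Isg15 and Oasl2 in the batch setting, and the sequences shown, were chosen after their values were seen. The members and lists were chosen with earlier results of these data known. Alternatives changed the pseudocount, filter, scaling, trend, batch term, block, types and libraries in the fit. Promoter windows came from RefSeq, GRCm38.p6.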

Additional observations from a re-analysis of the deposited data

Results flagged for a closer look

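Among the 38 genes in 3 types, 114 groups of 4 libraries, 10 held a highest or lowest library set apart from its group by more than the 95% critical value of Dixon's test allows; chance gives that in about 1 of 20 groups. In CLP batch 2 replicate 1, Rsad2 (14.58 TPM), Cmpk2 (10.83 TPM) and Ifit3 (1.77 TPM) were high. In CLP batch 2 replicate 2, Eif2ak2 (17.05 TPM) and Rtp4 (5.81 TPM) were low. GMP batch 2 replicate 1 was high in Dhx58 (7.32 TPM) and Parp9 (9.22 TPM), GMP batch 2 replicate 2 in Ifit3 (0.85 TPM) and GMP batch 1 replicate 2 in Ifi27l2a (6.25 TPM). Oas1a was low in LMPP batch 2 replicate 1 (12.8 TPM).

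For 2 genes the difference between CLP and GMP changed from batch 1 to batch 2 in a test of that change with limma. It changed by -1.20 on the log2 scale for Bst2 and by 2.52 for Isg20.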

How the results depend on the processing

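The median differences of the 38 genes between types stayed above 0 in every alternative. Read depth is unknown, and with 4 libraries a type many calls lay near the threshold. The cause of the changes below was not tested. Fits of 1 batch or 2 types hold fewer samples, and counts in them moved both ways. In LMPP against CLP the 19 calls became 11 with no batch term, 11 with only the 2 types in the fit, 10 in batch 1 alone, 6 in batch 2 alone, 12 with both batch 2 CLP libraries left out, and 12 to 19 when 1 library was left out. All tested genes called higher there fell from 7.23% to 3.81% with no batch term, 3.15% with 2 types, 7.06% in batch 1 alone, 584 of 13281 in batch 2 alone and 5.28% with those CLP libraries left out. The median of 0.86 became 0.53 with the CLP libraries of batch 2 left out and 0.54 in batch 1 alone. In LMPP against GMP the 28 calls became 11 in batch 2 alone (6.22% of tested genes higher). They became 32 with only the 2 types in the fit (29.9% higher). The median of 1.46 in that comparison became 1.76 with a pseudocount of 0.1 and 1.19 with quantile normalization. In CLP against GMP the 16 calls became 6 in batch 2 alone, where 8.58% of tested genes were called higher and 5.03% lower. They became 19 in batch 1 alone, beside 13.6% and 9.85%. The median of 0.56 in that comparison became 0.78 with a pseudocount of 0.1, 0.75 in batch 1 alone and 0.34 in batch 2 alone. Between batches in LMPP, 2 calls became 0 with no filter, 1 with no trend and 5 without the haemoglobin-rich pair, and 0 to 3 when 1 library was left out. In CLP, 7 calls became 4 with no filter and 19 without that pair, and 2 to 18 when 1 library was left out. In GMP, 2 calls became 1 with no filter, 0 with median-ratio scaling, 0 with quantile normalization, 0 with no trend and 8 without that pair, and 0 to 4 when 1 library was left out. The batch difference of Ifitm3 in CLP, 0.11 and not called, was 0.80 without CLP batch 2 replicate 2, -0.59 without CLP batch 2 replicate 1, and -0.59 without the haemoglobin-rich pair (adjusted p = 0.02). With the library number in each batch as a replicate block, LMPP against CLP had 3 calls, beside 1.22% of tested genes higher and 0.448% lower. The labels do not say whether the numbers pair the samples. Across genes, log2 differences of replicate 1 from the other library of its type and batch correlated between types at -0.106 to 0.169. These values cannot settle whether samples are paired. The highest was that of LMPP and CLP in batch 2, whose replicate 1 libraries are the haemoglobin-rich pair. LMPP batch 2 replicate 3 was alone in its block.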
